A study of Mus musculus with 15 samples.

Results

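The 10 genes described here encode ligands of the transforming growth factor beta (TGF-beta) superfamily, extracellular proteins that bind or sequester such ligands, and 1 coreceptor. They were taken by symbol (Tgfb1, Tgfb2, Tgfb3, Inhba, Bmp4, Fst, Fstl3, Fstl1, Grem1 and Eng) from the deposited gene tables of total and allele-assigned counts, which hold 55487 genes. All 10 were found, and all 10 passed the filter on low counts. The genes had been chosen by their total and allele-assigned counts in knockout against wild type, with that contrast already known, so their values in that contrast are a description and carry no test of their own.

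The cells were TTF cells of female C57BL6/CAST hybrid mice, and polyA-selected RNA was sequenced. Wild-type libraries (labelled S7WT_TTF) are numbered 1, 2 and 3, and knockout libraries (labelled SIRT7-KO) come from the lines 2, 9 and 22, giving 3 libraries a group. The cell type is taken from the sample labels; the design text of the series speaks of other cells (ES cells and embryonic fibroblasts), and the difference could not be resolved. SIRT7 is a nuclear NAD-dependent deacylase. The labels give no age, no account of how the knockout was made, and no statement that the wild-type libraries came from separate animals or cultures, so the p-values measure the spread between these libraries only. Each knockout library is 1 line. If the wild-type libraries share 1 line, line and genotype cannot be told apart. The other 9 libraries in the labels, from cells labelled SIRT7-HY, cells with SIRT7 added back and a further knockout set, were not analysed here. That further set, labelled S7KO_TTF, shares its title form with the wild-type libraries. The titles of the knockout lines used here instead resemble those of the SIRT7-HY cells. The labels do not say whether wild type and these lines were prepared together, so genotype and library set cannot be told apart.

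TGF-beta and activin ligands act through paired type I and type II receptor kinases that phosphorylate SMAD proteins, and bone morphogenetic proteins (BMPs) use a parallel set of receptors and SMADs. Secreted antagonists set how much ligand reaches the receptor: follistatins bind activins, and gremlin binds BMPs. In skin and tail fibroblasts these signals are known for driving matrix synthesis and the contractile myofibroblast state.

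Total gene counts lay between 61065582 and 61506413 per library, and 37.0% to 37.9% of the counts split by allele were assigned to a parental genome. The biological coefficient of variation was 0.136 over the wild-type libraries and 0.379 over the knockout libraries. Sirt7 itself had gene counts of 833, 1107 and 598 in wild type and 512, 694 and 787 in knockout, which overlap, while its transcript Sirt7-201 had 53, 58 and 159 counts in wild type against 2, 0 and 0 in knockout. Summed fibroblast markers (11 genes, led by Col1a1) lay between 16744 and 16970 counts per 1000000 total counts (CPM) in wild type and between 25719 and 32571 in knockout. Col1a1 alone ranged from 7383 to 15827 CPM. Of the 11, 3 were called higher, beside 3.54% of all tested genes. These 3 were Col1a1, Col1a2 and Col3a1, which are also in the list of TGF-beta-responsive genes below. Smooth muscle and pericyte markers (6 genes, led by Acta2) summed to 7267 to 8085 CPM in wild type and 8734 to 12245 in knockout. Acta2 (7180 to 12132 CPM) made up nearly all of this sum and was not called (edgeR adjusted p = 0.104). Of the 6, 1 was called higher. Summed immune markers were 15.3 to 16.4 CPM in wild type and 19.8 to 29.8 in knockout, and adipocyte markers 16.6 to 21.6 and 4.72 to 40.0. The immune sum was led by Lyz2 (5.41 to 22.5 CPM), with Ptprc, Adgre1 and Csf1r under 1 CPM in all libraries. Fabp4 (3.73 to 39.9 CPM) led the adipocyte sum, with Adipoq and Plin1 under 1 CPM. Keratinocyte, Schwann and chondrocyte markers summed to at most 10.2 CPM in any library, and skeletal muscle markers to at most 0.0327. The part of these markers in the members' values was not tested.

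Across all genes, edgeR's quasi-likelihood test set the knockout lines against wild type, and a Benjamini-Hochberg adjusted p under 0.05 was called. It called 1123 of 16678 tested genes, which is 6.73%: 3.54% higher and 3.19% lower in knockout. Of the 10 members, 1 was called higher (Eng), 1 lower (Grem1) and 8 were not called. The 3 knockout values lay wholly outside the 3 wild-type values for 7 members, beside 35.9% of all tested genes (15.7% with knockout above and 20.2% with knockout below); nothing is read from either count, since the rule used this contrast. The members' median log2 fold change, knockout over wild type, was 0.47, and that of all tested genes 0.02. Spread differed between the groups: the median SD of log2 CPM over the members was 0.07 in wild type and 0.40 in knockout, against 0.09 and 0.23 over all tested genes.

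The upstream regions of Fstl3, Inhba, Grem1 and Eng are shown because Fstl3 had the largest difference in allelic ratio among the members tested for it, Grem1 and Eng were the members called between groups, and Inhba encodes the activin chain that follistatins bind. Each is the 250 bases before the gene's annotated start, 5′ to 3′ on the gene's strand, from RefSeq on GRCm38.p6. The positions are chr10:79777024-79777273 (plus strand) for Fstl3, chr13:16011601-16011850 (plus) for Inhba, chr2:113758649-113758898 (minus) for Grem1 and chr2:32646345-32646594 (plus) for Eng. Capitals mark CAGAC, the core of the SMAD box, or its reverse complement GTCTG.
Fstl3: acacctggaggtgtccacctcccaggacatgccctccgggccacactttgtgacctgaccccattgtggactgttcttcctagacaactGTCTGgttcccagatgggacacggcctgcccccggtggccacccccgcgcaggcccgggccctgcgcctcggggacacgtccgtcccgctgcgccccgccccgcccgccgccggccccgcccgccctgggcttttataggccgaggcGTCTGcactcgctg
Inhba: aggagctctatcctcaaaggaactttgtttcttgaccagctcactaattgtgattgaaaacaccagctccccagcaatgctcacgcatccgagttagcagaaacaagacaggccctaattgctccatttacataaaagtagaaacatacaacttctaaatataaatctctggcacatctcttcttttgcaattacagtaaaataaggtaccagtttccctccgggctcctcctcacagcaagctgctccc
Grem1: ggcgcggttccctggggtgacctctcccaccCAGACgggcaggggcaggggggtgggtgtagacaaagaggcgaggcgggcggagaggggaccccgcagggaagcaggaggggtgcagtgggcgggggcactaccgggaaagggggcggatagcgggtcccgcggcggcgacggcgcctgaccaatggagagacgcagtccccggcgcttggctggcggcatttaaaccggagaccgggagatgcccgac
Eng: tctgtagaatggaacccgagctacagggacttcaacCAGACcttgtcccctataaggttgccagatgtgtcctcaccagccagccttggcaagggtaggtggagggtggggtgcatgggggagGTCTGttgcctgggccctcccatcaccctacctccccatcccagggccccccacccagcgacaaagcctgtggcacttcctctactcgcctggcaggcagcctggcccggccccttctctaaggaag
The 5-letter core occurs 2 times in the Fstl3 window, 0 times in Inhba, 1 time in Grem1 and 2 times in Eng. A window was matched for 8 members (not Fst and Tgfb3), and 4 of the 8 held CAGAC on either strand, beside 42.2% of 32851 RefSeq windows of the same length. The palindrome GTCTAGAC, which holds no CAGAC or GTCTG, was in none of the 8 and in 0.167% of all windows. Base composition separated these windows more than the motif did. Fstl3 and Grem1 had a GC content of 71.2% and 72.0% with 22 and 24 CpG dinucleotides, Eng 62.4% with 4, and Inhba 43.2% with 3, around medians of 52.4% and 6 over all windows. A match is a string of letters and no evidence of binding.

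Within wild type, the levels of the members spanned more than 2 orders of magnitude. On the scale of CPM per kilobase of merged exons, Fstl1 was highest at a mean of 359, followed by Tgfb3 at 46.7, Fstl3 at 25.7, Inhba at 14.8, Tgfb1 at 11.7, Eng at 7.22 and Tgfb2 at 3.71. Bmp4 (1.86 to 2.24) and Grem1 (1.78 to 2.11) overlapped and are not separated by their spread, and Fst was lowest at 0.960 to 1.33. On this scale every other neighbouring pair in the order had non-overlapping ranges over the 3 libraries. The positions of Tgfb1 and Fst depend on the length used. Divided by the longest transcript, Tgfb1 stood at 22.9, above Inhba at 14.8, and Fst at 1.79, close to Grem1 at 1.90, so that Fst is not set apart as the lowest.

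**Figure D1:**
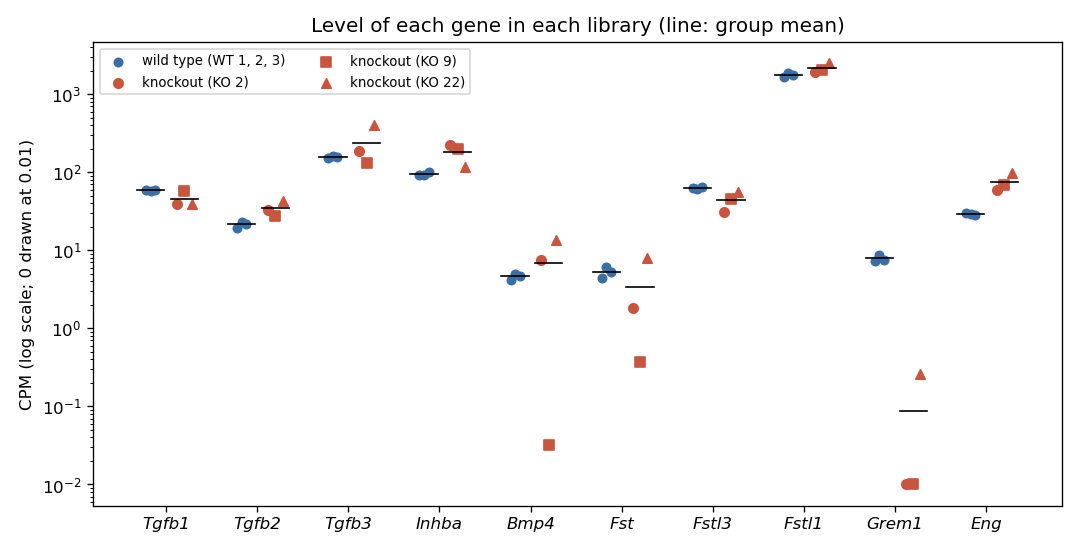
CPM of the 10 members in each library on a logarithmic axis, wild type beside knockout, with 1 point per library, a line at each group's mean and values of 0 drawn at 0.01. The wild-type points of each gene sit close together, whereas the knockout points of Fst, Bmp4 and Tgfb3 spread widely and 2 of the 3 Grem1 points in knockout are at 0.

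The TGF-beta ligands differed from each other in their knockout values. Tgfb1 (ENSMUSG00000002603, chromosome 7, 25687002 to 25705077, plus strand), the latent cytokine best known for driving fibroblast activation, had 60.0, 58.2 and 58.9 CPM in wild type and 39.6, 57.2 and 39.3 in knockout. Lines 2 and 22 were low, line 9 was just under the wild-type range, and the groups did not overlap. The means were 59.0 ± 0.906 and 45.3 ± 10.2 CPM (SD, n = 3 each), with a log2 fold change of -0.35 (SE 0.16).

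Tgfb2 (ENSMUSG00000039239, chromosome 1, 186622792 to 186705989, minus strand), a ligand that needs the coreceptor betaglycan for efficient binding, had 19.3, 23.3 and 21.8 CPM in wild type and 32.6, 27.8 and 43.1 in knockout. All 3 knockout lines were above all wild-type libraries. Its mean went from 21.5 ± 2.03 to 34.5 ± 7.86 CPM, a log2 fold change of 0.72 (SE 0.19). Tgfb3 (ENSMUSG00000021253, chromosome 12, 86056745 to 86079041, minus strand), the isoform known from palate fusion and wound repair, had 154, 161 and 159 CPM in wild type and 185, 131 and 400 in knockout. Line 22 alone was far above, line 9 was below the wild-type range, and the groups overlapped. Its log2 fold change of 0.63 had an SE of 0.39, and it was 0.01 without line 22 and 0.92 without line 9.

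Inhba (ENSMUSG00000041324, chromosome 13, 16011851 to 16031621, plus strand) encodes the inhibin beta A chain, whose homodimer is activin A. It stood at 92.8, 91.2 and 100 CPM in wild type and at 223, 201 and 118 in knockout, so that all lines were higher and line 22 was the closest to wild type. The mean was 1.91 times as high (94.8 ± 4.82 against 181 ± 55.6 CPM), a log2 fold change of 0.96 (SE 0.22).

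Bmp4 (ENSMUSG00000021835, chromosome 14, 46383520 to 46390669, minus strand), a BMP ligand, had 256, 309 and 288 counts in wild type and 454, 2 and 823 in knockout. It was close to undetected in line 9 and above every wild-type library in the other lines. Its mean of 6.97 ± 6.72 CPM in knockout, against 4.64 ± 0.422 in wild type, averages lines that differ widely, and the fitted log2 fold change was 0.63 with an SE of 1.27.

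The extracellular antagonists were lower in knockout or split by line, apart from Fstl1. Fst (ENSMUSG00000021765, chromosome 13, 114452290 to 114458951, minus strand), the classical follistatin that binds activin, had 4.41, 6.09 and 5.22 CPM in wild type and 1.82, 0.374 and 7.89 in knockout. Line 22 was above wild type and lines 2 and 9 below it, a 21.1-fold range among the lines beside 1.38-fold among the wild-type libraries. The log2 fold change was -0.59 (SE 0.92), but -2.25 without line 22, -0.07 without line 9, -0.29 without line 2 and -1.54 with limma-voom.

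Fstl3 (ENSMUSG00000020325, chromosome 10, 79777272 to 79782630, plus strand) encodes follistatin-like 3, which binds activins and myostatin. Its total level was 63.0, 60.8 and 64.3 CPM in wild type and 30.6, 45.0 and 55.3 in knockout. Every line was below every wild-type library, with line 2 the lowest. The means were 62.7 ± 1.75 and 43.7 ± 12.4 CPM, and the log2 fold change was -0.49 (SE 0.22). The 72 tested genes within 1000000 bp had a median log2 fold change of 0.03 and chromosome 10 one of 0.18. Of the Fstl3 merged exons, 1157 of 2445 bp overlap the opposite-strand gene Prss57, which had 11 or fewer counts in each library.

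Fstl1 (ENSMUSG00000022816, chromosome 16, 37776873 to 37836514, plus strand), a follistatin-domain glycoprotein secreted by mesenchymal cells, was the most abundant member in both groups. It had 1673, 1857 and 1760 CPM in wild type and 1902, 2048 and 2484 in knockout. The groups did not overlap, but the gap between the closest libraries was small beside the spread, and the log2 fold change was 0.32 (SE 0.13).

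Grem1 (ENSMUSG00000074934, chromosome 2, 113746164 to 113758646, minus strand), which encodes the BMP antagonist gremlin, had 452, 537 and 461 counts in wild type and 0, 0 and 16 in knockout, where line 22 held all of them. In CPM these were 7.40, 8.74 and 7.50 against 0, 0 and 0.261. The wild-type mean was 90.4 times the knockout mean. This gene was called lower by edgeR (log2 fold change -6.42, SE 1.15, adjusted p = 0.0312). The call was lost without any single wild-type library (edgeR adjusted p 0.143 to 0.152) and without the filter on low counts (0.0645). Over all genes, 51, 45 and 50 were called without wild-type library 1, 2 or 3, against 1123 with all libraries. Without line 22 both knockout libraries are at 0, and the fitted value of -11.91 then depends on the prior count and is no bound.

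Eng (ENSMUSG00000026814, chromosome 2, 32646595 to 32682669, plus strand) encodes endoglin, a coreceptor that binds TGF-beta and BMP ligands together with their signalling receptors. It stood at 30.0, 29.0 and 28.6 CPM in wild type and at 59.4, 69.7 and 99.3 in knockout, so that the lowest line was far above the highest wild-type library. Its mean was 2.60 times as high (29.2 ± 0.729 against 76.1 ± 20.7 CPM), and edgeR called it higher (log2 fold change 1.42, SE 0.21, adjusted p = 0.0180). The call was lost without any single wild-type library (adjusted p 0.113 to 0.117) and kept without any single knockout line in the same edgeR fit.

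Endoglin is also a marker of endothelial cells. The 8 other endothelial markers summed to 2.31 to 2.76 CPM in wild type and to 4.78, 5.64 and 0.833 in lines 2, 9 and 22. Of the 8, 7 were under 1 CPM in all libraries and Cdh5, Cldn5 and Tie1 were at 0. The remaining marker, Tek, ranged from 0.588 to 5.51 CPM. In these bulk libraries, a difference in cell numbers and a difference in RNA per cell cannot be told apart. The part of endothelial cells in the Eng values was not tested. Eng also shares 61 bp of exon with the opposite-strand gene Fpgs, which had 3169 to 3430 counts in wild type and 2330 to 3095 in knockout.

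The activin chain and the follistatins that bind it can be put on 1 scale, although none of Inhba, Fst and Fstl3 was called between groups and Fst overlapped. The ratio of Inhba to the sum of Fst and Fstl3, each per kilobase of merged exons, was 0.543, 0.545 and 0.572 in wild type and 2.70, 1.70 and 0.756 in knockout. All 3 lines exceeded wild type, line 2 most and line 22 least. The means were 0.553 ± 0.0162 and 1.72 ± 0.973, or 0.438 ± 0.0129 and 1.37 ± 0.775 with the longest transcript as length. This ratio was formed after the values were seen and has no test.

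Because the mice are hybrids of 2 strains, reads over strain differences were assigned by the authors to genome 1 or genome 2. The sources used here do not say which of the strains genome 1 stands for. In wild type, 71.0% of 12833 tested genes had unequal allele counts by an edgeR quasi-likelihood test with a library and an allele term, and in knockout 30.9% of 12996. Among the members, 9 of 10 were called in wild type, 4 with more genome 1 and 5 with more genome 2, and 3 of 9 in knockout. With chromosome medians taken out, 6 were called in wild type (Fstl3, Inhba and Tgfb2 were lost) and 5 in knockout. Unequal alleles were thus common among genes in general in wild type, and the members' counts are read against that. The members were chosen with their allele-assigned counts known, so their allele p-values within each group are descriptions too.

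**Figure D2:**
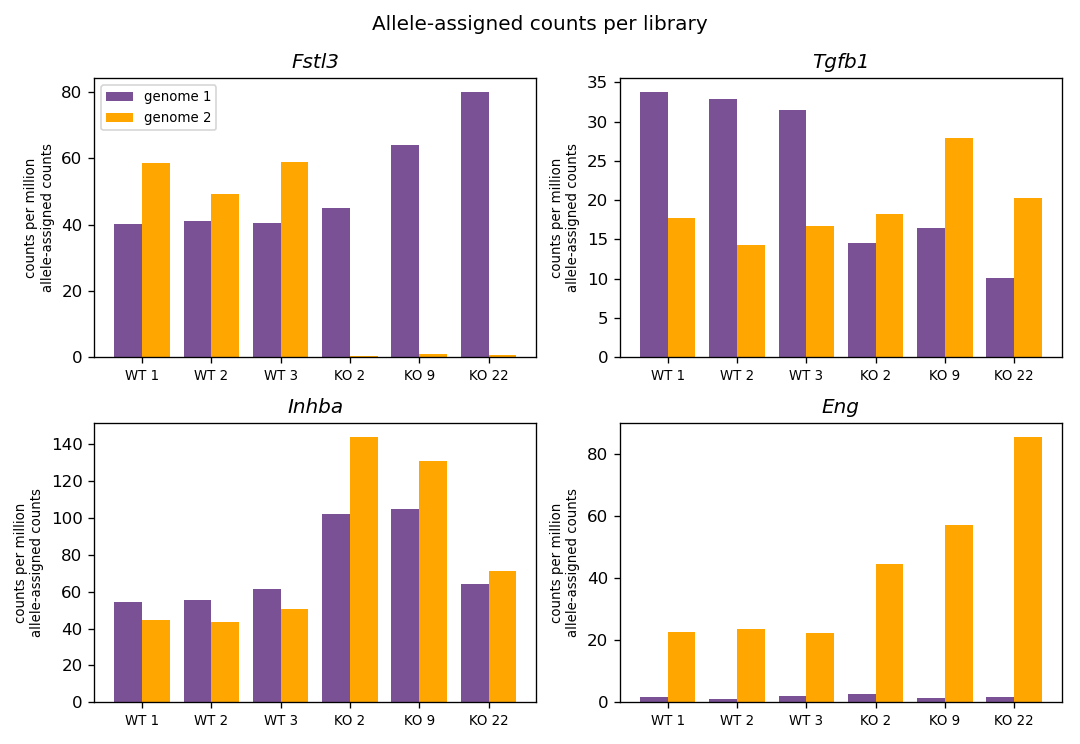
Allele-assigned counts, scaled to CPM within each library, of genome 1 and genome 2, 1 pair of bars per library, for Fstl3, Tgfb1, Inhba and Eng. Genome 2 of Fstl3 is under 1 in all 3 knockout lines beside a mean of 55.4 in wild type, the taller bar of Tgfb1 and of Inhba changes from genome 1 to genome 2, and Eng comes almost wholly from genome 2 throughout.

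The Fstl3 alleles diverged most. In wild type, genome 1 gave 899, 934 and 929 counts and genome 2 gave 1307, 1116 and 1346, a genome 1 share of 40.8%, 45.6% and 40.8%. Both alleles were thus expressed. Counted over the whole gene, edgeR called a modest excess of genome 2 (log2 ratio -0.44, SE 0.08, adjusted p = 0.00961), a call lost without library 3 (0.0530). That excess followed the chromosome: with chromosome medians taken out the log2 ratio was 0.21 (edgeR adjusted p = 0.111).

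In the knockout lines, genome 1 gave 1012, 1468 and 1836 Fstl3 counts and genome 2 gave 12, 20 and 19. The genome 2 shares were 1.17% (95% Wilson interval 0.672 to 2.04), 1.34% (0.872 to 2.07) and 1.02% (0.657 to 1.59), so the 3 lines were alike within counting error. Such intervals cover counting error only. Within knockout edgeR gave a log2 ratio of 6.39 (SE 0.22, adjusted p = 0.00228). Fstl3 was listed with these counts known, so this value is a description and carries no test of its own.

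Scaled per library to CPM of allele-assigned counts and over the whole gene, Fstl3 of genome 2 went from 55.4 ± 5.54 in wild type to 0.744 ± 0.183 in knockout, 74.6-fold lower. Its genome 1 counterpart went from 40.6 ± 0.424 to 62.9 ± 17.5, or 1.55 times as high. The total level, given above, holds both. Most wild-type genome 2 counts were assigned to the noncoding transcript described below. The 74.6-fold value is thus not that of the coding transcript, whose counts are given there. A share of 10% to 90% in all wild-type libraries together with under 5% or over 95% in all knockout libraries was met by 39 of 12984 tested genes, or 0.300%; Fstl3 was listed with this known.

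The genes around Fstl3 did not share its allelic values. Over chromosome 10 the genome 1 share averaged 36.9% in wild type and 47.8% in knockout, and over the 65 neighbours within 1000000 bp it averaged 40.7% and 52.8%. Only 1 neighbour, Gm19810, was over 95% genome 1 in every knockout line, and it was over 95% in every wild-type library too. The nearest gene with allele counts, Rnf126, 10320 bp away, had a mean share of 35.2% in wild type and 50.9% in knockout. Fstl3 exceeded its neighbours' pooled share by 1.73 percentage points in wild type and by 46.1 in knockout (44.8 to 47.0).

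**Figure D3:**
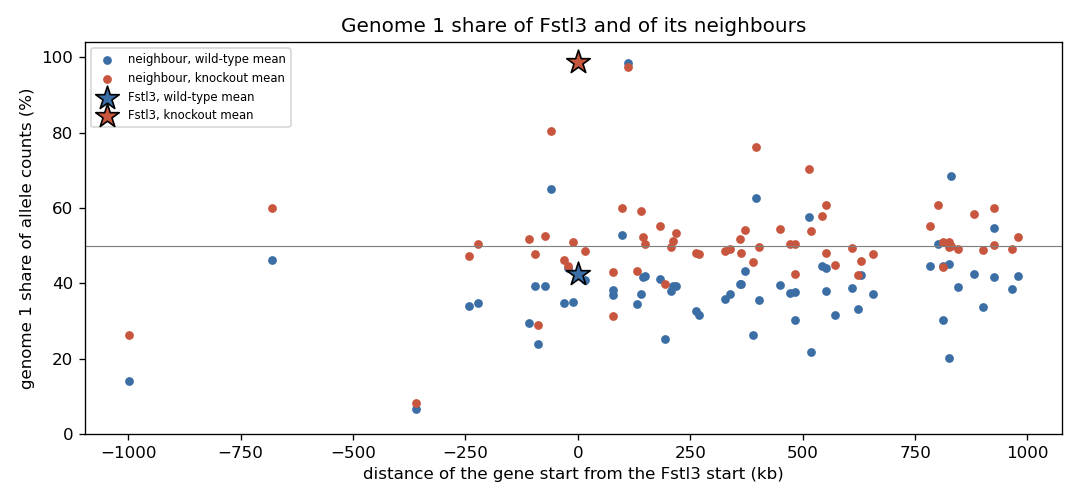
Mean genome 1 share in percent of Fstl3 and of the 65 genes within 1000000 bp, against distance from the Fstl3 start in kilobases, for wild type and knockout. The neighbours have pooled shares of 40.7% in wild type and 52.8% in knockout, while Fstl3 in knockout stands at 98.8%.

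Transcript estimates add a further detail for Fstl3. Of its counts over all reads, the noncoding processed transcript of Fstl3 took 254, 227 and 158 in wild type (a mean of 5.56% of the gene) and 1, 2 and 4 in knockout. In the reads split by allele, that transcript had 839, 752 and 821 genome 2 counts in wild type and 439, 2 and 0 from genome 1. The main coding transcript had 442, 293 and 453 genome 2 counts in wild type and 11, 14 and 16 in knockout. Its genome 1 counts were 430, 917 and 912 in wild type and 972, 1410 and 1792 in knockout. The wild-type excess of genome 2 over the whole gene was thus not seen in the coding transcript in libraries 2 and 3. In knockout the noncoding transcript had 0 genome 2 counts in each line and 0, 2 and 3 from genome 1, so it was near absent from both. Only for the coding transcript was genome 2 low in knockout while genome 1 was not. How reads were divided between the transcripts differs between the whole and the split tables, so the split proportions are estimates only.

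Transcript estimates of Tgfb2 and Eng, also over all reads, gave different pictures. For Tgfb2 the longer of the main coding transcripts had 85.8%, 96.5% and 96.3% of the gene's counts in wild type and 75.6%, 69.4% and 69.4% in knockout. The shorter one had 131, 15 and 0 counts in wild type and 444, 491 and 760 in knockout, with no overlap between groups. In the split tables it received at most 46 counts in any class, so this division of reads is uncertain. For Eng the main pair of coding transcripts averaged 46.6% ± 6.51 and 50.7% ± 7.66 of counts in wild type and 43.0% ± 8.88 and 53.1% ± 11.2 in knockout, overlapping between groups, so the higher total was seen in both.

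Eng was carried almost wholly by genome 2 in both groups. Its genome 1 share was 7.65%, 4.75% and 8.56% in wild type and 5.38%, 2.22% and 1.80% in knockout. By edgeR the log2 ratio was -3.76 in wild type (SE 0.22, adjusted p = 0.000514) and -5.11 in knockout (SE 0.46, adjusted p = 0.00774). The knockout call was lost without line 22 (edgeR adjusted p = 0.0540). Neighbouring genes had pooled genome 1 shares of 47.1% in wild type and 42.7% in knockout, so the skew of Eng was about 40 percentage points beyond them in each group (-40.1 and -39.6).

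The higher total of Eng in knockout lay in the allele that was already dominant. Genome 2 went from 23.0 to 62.6 CPM of allele-assigned counts, 2.73 times as high, whereas genome 1 went from 1.72 to 1.80, or 1.05 times. The difference in share between groups was not past the threshold in the edgeR fit of the ratio.

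Grem1, the other gene on chromosome 2, was detected from the opposite genome. Wild type had 16, 30 and 32 genome 1 counts and none from genome 2, which makes genome 1 at least 26.0-fold higher with a floor of 3 counts over the group and allows a genome 2 share of up to 3.85%. Its neighbours averaged 70.0% genome 1 in wild type. In knockout, 2 genome 1 counts in line 22 were all that was seen, too few for a test.

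Inhba was near balance in wild type, with genome 1 shares of 54.8%, 56.2% and 54.9%, and lay on the other side of 50% in knockout, at 41.5%, 44.3% and 47.3%. In wild type edgeR called the excess of genome 1 (log2 ratio 0.31, SE 0.05, adjusted p = 0.00643). Relative to the median ratio of chromosome 13 it was 0.07 (edgeR adjusted p = 0.326). Both alleles were higher in knockout, genome 1 by 1.58 times and genome 2 by 2.50 times. The 5 neighbours within 1000000 bp pooled to 72.8% genome 1 in wild type and 66.1% in knockout. Their median share per library was lower, at most 61.2% in wild type and 51.2% in knockout. In every library this median lay closer to the Inhba share than the pooled share did. No departure of Inhba from its surroundings is therefore read from the pooled shares.

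For Tgfb1 the allelic values moved with the whole of chromosome 7. Its genome 1 share was 65.7%, 69.7% and 65.3% in wild type and 44.2%, 37.2% and 33.4% in knockout. The chromosome averaged 57.6% and 31.7%, and the neighbours 65.9% and 37.6%, so Tgfb1 differed from its neighbours by 1.03 percentage points in wild type and 0.667 in knockout. Genome 1 went from 32.7 to 13.7 CPM of allele-assigned counts, while genome 2 went from 16.2 to 22.1. In wild type edgeR called the excess of genome 1 (log2 ratio 1.02, SE 0.09, adjusted p = 0.00144), also with chromosome medians taken out (0.41, adjusted p = 0.0290). The gene's own difference between groups and that of its chromosome cannot be told apart here.

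Tgfb2 showed the reverse, again with its chromosome. Shares of 24.2%, 37.6% and 21.2% in wild type stood against 38.9%, 51.1% and 55.5% in knockout, while chromosome 1 went from 36.8% to 61.5% and the neighbours from 37.6% to 63.5%. In wild type edgeR called the excess of genome 2 (log2 ratio -1.42, SE 0.27, adjusted p = 0.0107), but not with chromosome medians taken out (-0.81, adjusted p = 0.0725) or without library 1 (adjusted p = 0.0574).

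Tgfb3 and Bmp4 were skewed to genome 2 against their surroundings. Tgfb3 had genome 1 shares of 39.8%, 41.5% and 42.3% in wild type and 33.5%, 23.3% and 33.5% in knockout, with neighbours pooled at 64.8% and 44.8%. The edgeR log2 ratio was -0.51 in wild type (SE 0.04, adjusted p = 0.00117) and -1.23 in knockout (SE 0.21, adjusted p = 0.0233), where the call was lost without line 2 (0.0905) or line 22 (0.0920). Line 9 had the lowest Tgfb3 share and also the lowest chromosome 12 average, 32.2% against 47.4% and 47.3% in the other lines.

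Bmp4 had genome 1 shares of 15.8%, 18.5% and 22.8% in wild type (edgeR log2 ratio -2.08, SE 0.25, adjusted p = 0.00301), beside neighbours at 46.9%. Lines 2 and 22 had 30.2% and 29.2%, and line 9 had no allele-assigned count. Both expressing lines thus kept a genome 2 excess in direction, though the knockout test did not pass (adjusted p = 0.113).

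The shares of the follistatin-family genes Fst and Fstl1 varied between libraries. Fst favoured genome 1 in wild type at 77.1%, 71.3% and 69.1% (edgeR log2 ratio 1.40, SE 0.18, adjusted p = 0.00372). In knockout it had 84.2%, 35.7% and 87.0%, of which the middle value, from line 9, rests on 5 and 9 counts. Fstl1, despite its abundance, ranged over 57.6%, 40.9% and 71.7% in wild type and 44.9%, 47.0% and 32.6% in knockout, and edgeR did not call it in wild type (log2 ratio 0.42, SE 0.39, adjusted p = 0.381).

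**Figure D4:**
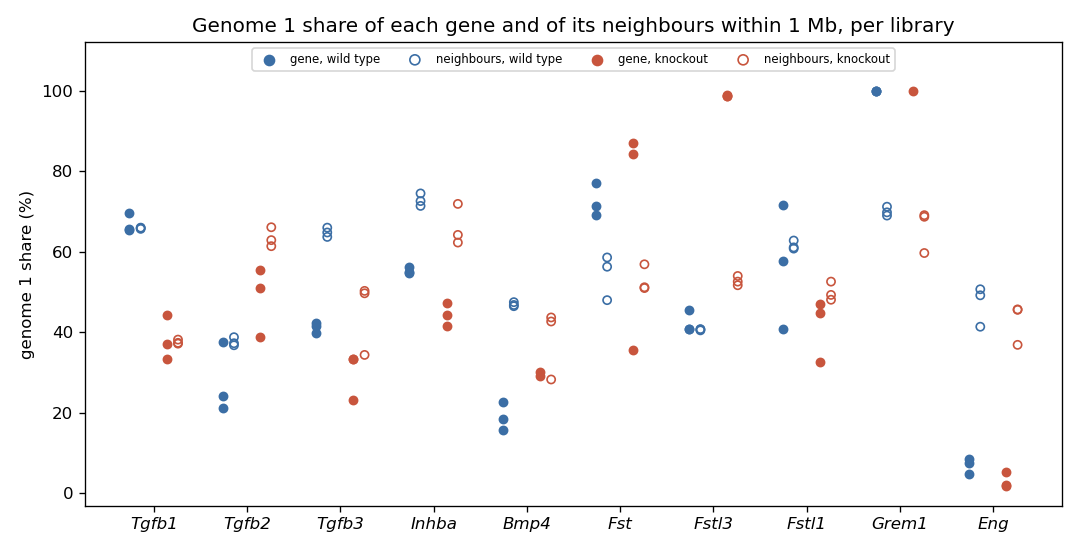
Genome 1 share in percent of each of the 10 genes (filled points) and pooled over its neighbours within 1000000 bp (open points), per library, for wild type and knockout. Tgfb1 lies beside its neighbours in both groups, Eng lies far under them in both, and Fstl3 lies far above them in the knockout lines.

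In the fit of the allelic ratio between knockout and wild type, 3 of 9 members passed the threshold (Fstl3 toward genome 1, Inhba and Tgfb1 toward genome 2), beside 23.0% of 12984 tested genes. The Inhba call was lost with limma on the logit of the share (adjusted p = 0.0530), without any single wild-type library (edgeR adjusted p 0.0899 to 0.103) and without line 2 (0.0544), while those of Fstl3 and Tgfb1 held under each of these. This contrast was in view when the genes were picked, so the count is given as a description.

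The other genes of the pathway were taken as 7 lists by role, 147 genes in all, drawn up with earlier results of these data known. Of these, 103 passed the filter on low counts, and edgeR called 11 (5 higher, 6 lower), or 10.7%, beside 6.73% of all tested genes. Their median log2 fold change was 0.10. Leaving out any single wild-type library removed these calls (edgeR adjusted p 0.0493 to 0.191) for all but Cnn1, which kept its call without library 1. Calls over all genes fell likewise, as given above. Without the filter on low counts 5 were called (Tgfbr3, Tgfbi, Cnn1, Col1a2 and Col1a1), and the other 6 were lost (adjusted p 0.0604 to 0.0880).

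Among 28 further ligands 8 passed the filter, and none was called by edgeR (4 at an unadjusted p under 0.05, 4 by DESeq2, 1 by limma-voom). Their median log2 fold change was 0.43. Gdf11, the most abundant, had 39.9 ± 0.665 CPM in wild type and 53.3 ± 5.98 in knockout (edgeR adjusted p = 0.0642). Of 12 tested antagonists out of 21, Chrdl1, which encodes a BMP-binding chordin relative on the X chromosome, fell: 17, 25 and 25 counts in wild type against 3, 0 and 2 (log2 fold change -3.61, SE 0.69, edgeR adjusted p = 0.0350). Like Grem1, this BMP antagonist was near 0 in all 3 lines, but at a far lower starting level. The remaining 11 were not called, and Smoc2, the most abundant, overlapped between groups.

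Genes of ligand latency and activation numbered 15 tested of 18, with a median of 0.30. Bmp1, a protease that processes procollagens and releases TGF-beta and BMP ligands from their inhibitors, had 143 ± 15.7 CPM in wild type and rose to 219 ± 29.0 in knockout (edgeR log2 fold change 0.64, SE 0.14, adjusted p = 0.0444). That call was also lost without line 9 (0.0719), without line 22 (0.0551) and in limma-voom (0.0585). Thbs1, an activator of latent TGF-beta and the most abundant of the list, had means of 1054 and 1822 CPM without passing the test (edgeR adjusted p = 0.0899).

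The receptors and coreceptors, 14 tested of 19, had 1 call and a median of -0.11. Tgfbr3, which encodes the coreceptor betaglycan, fell from 7707, 8255 and 8283 counts in wild type to 3516, 2817 and 4300 in knockout (log2 fold change -1.15, SE 0.17, edgeR adjusted p = 0.0179). It is related in sequence to Eng, and the pair of coreceptors was called in opposite directions, with Eng higher and Tgfbr3 lower. The signalling receptors Tgfbr1 and Tgfbr2, named after their values were seen, had log2 fold changes of -0.10 (SE 0.19) and 0.07 (SE 0.24), and Bmpr1a, the most abundant of the list, -0.12 (SE 0.10). The activin receptors Acvr1b, Acvr2a and Acvr2b, named likewise, had -0.69 (SE 0.19), 0.42 (SE 0.17) and 0.93 (SE 0.29). None of these 3 was called (edgeR adjusted p 0.0783, 0.173 and 0.104), and none overlapped between groups. In this list 5 of the 14 did not overlap, beside 35.9% of all tested genes.

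Of 21 tested SMADs and regulators out of 22, Smad9, a SMAD of the BMP branch, fell from 20.3 ± 0.759 to 9.43 ± 2.10 CPM (log2 fold change -1.07, SE 0.19, edgeR adjusted p = 0.0309). The other 20 were not called, the median was 0.02, and Pmepa1, the most abundant, had a log2 fold change of 0.14.

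Genes known to respond to TGF-beta or activin, 24 tested of 26, held 7 of the 11 calls, 4 higher and 3 lower, with a median of 0.47. Tgfbi, a secreted matrix protein, fell from 17.3 ± 2.67 to 0.0651 ± 0.0860 CPM (log2 fold change -7.98, SE 0.77, edgeR adjusted p = 0.00600), and the contractile gene Cnn1 from 18.4 ± 3.17 to 1.81 ± 0.704 CPM (-3.30, SE 0.34, adjusted p = 0.00706). The collagen genes Col1a2 and Col1a1 rose, by log2 fold changes of 1.25 (SE 0.15, edgeR adjusted p = 0.0104) and 0.93 (SE 0.13, adjusted p = 0.0175). Calls in this list therefore ran in both directions. The other 3 calls, named after their values were seen, were Col3a1 (1.10) and Cdkn2b (0.47), which rose, and Angptl4 (-2.90), which fell. Angptl4 lost its call without line 22 (edgeR adjusted p = 0.0502) and with chromosome medians taken out (0.0746), as did Col3a1 with those medians out (0.0820).

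The BMP-responsive genes, 9 tested of 13, had a median of -0.44 and no call by edgeR (4 at an unadjusted p under 0.05, 3 by DESeq2, 2 by limma-voom). Id1, a transcriptional regulator induced directly by BMP SMADs and named here after its values were seen, had 7293, 6869 and 7213 counts in wild type and 5133, 5007 and 3356 in knockout, without overlap (log2 fold change -0.63, SE 0.16, edgeR adjusted p = 0.0672). Of the 9 tested genes, 4 did not overlap between groups: Id1, Runx2 and Atoh8 were lower in knockout, and Msx2 was higher. Msx2 had 296, 261 and 351 counts in wild type and 615, 530 and 375 in knockout. Its log2 fold change was 0.77 (SE 0.23, edgeR adjusted p = 0.0903). Runx2, Atoh8 and Msx2 were likewise picked with their values in view. Id3, the most abundant of the list, overlapped between groups at 172 ± 2.82 and 158 ± 59.5 CPM.

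**Figure D5:**
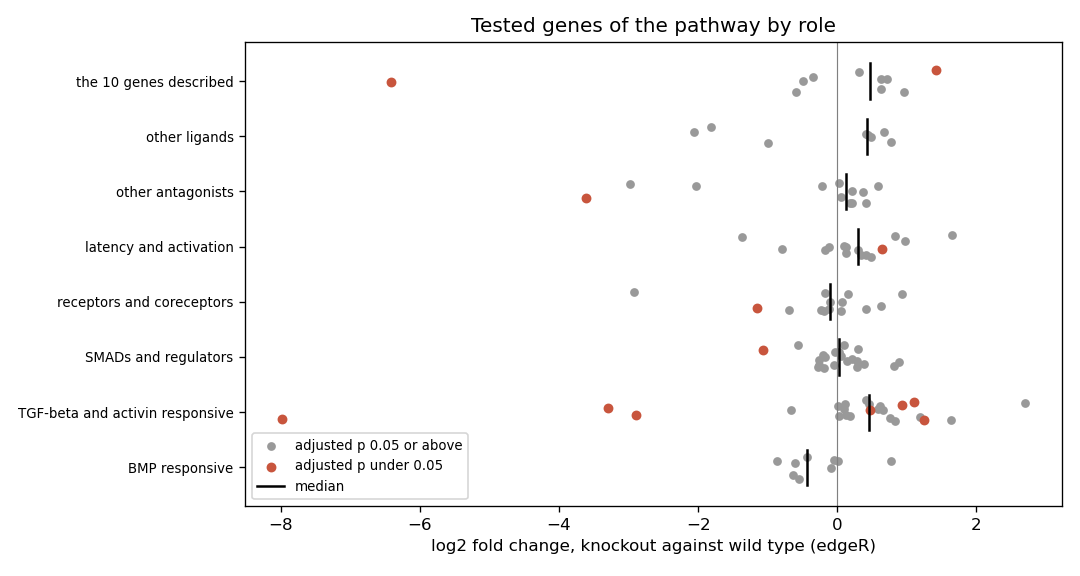
Log2 fold change, knockout over wild type, of the 10 genes described and of the tested genes in each of the 7 role lists, with 1 point per gene, genes at an edgeR adjusted p under 0.05 in red and a line at each median. The medians of the role lists lie between -0.44 for BMP-responsive genes and 0.47 for genes responding to TGF-beta or activin, and red points fall on both sides of 0.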

How the data were processed

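PolyA RNA libraries of 6 samples were compared, 3 wild type and 3 SIRT7-knockout. According to the submitters' processing notes, the tools were StringTie 1.3.3, HISAT2 2.1.0, Trimmomatic 0.36, FastQC 0.11.3, DESeq2 1.32.0 and SAMtools 0.1.19, and the builds GRCm38 and mm10. Settings, strandedness and annotation were not given in the sources used here. Gene and transcript tables of estimated counts were deposited by the authors, over all reads and again over reads divided into genome 1, genome 2 and unassigned. All values are whole numbers, so no rounding was needed. They are called estimated because StringTie derives counts from coverage, where raw counts had been assumed when the tests were chosen. The knockout columns carry 2, 9 and 22, which match the titles of 3 lines; they could also be earlier libraries of the same genotype. Of 55487 genes, 55227 matched GENCODE M21 on GRCm38, which gave coordinates and exon lengths; the other 260 held 0.0319% of counts.

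Groups were compared in edgeR 4.0.16 (R 4.3.3) by the quasi-likelihood test with TMM scaling, the default low-count filter and Benjamini-Hochberg adjustment over all tested genes. These fits gave the adjusted p-values printed. Allelic ratios used the same test with library and allele terms, where allele-assigned counts averaged 20 or more per library. DESeq2 1.42.0 and limma-voom (limma 3.58.1) with group weights were alternatives, as were other scaling, no filter, chromosome medians taken out and leaving out each library. Upstream windows came from RefSeq. Scripts were tested on simulated data.

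The members, role lists and marker lists were chosen with earlier results of these data known. Beyond the members, the text names the called genes with the smallest p (up to 4 per role list), the most abundant gene of each role and marker list, and Sirt7. Other names, among them Gm19810, Rnf126, Prss57 and Fpgs, were chosen after their values were seen.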

Additional observations from a re-analysis of the deposited data

Results flagged for a closer look

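For 3 genes, every wild-type library lay on 1 side of a genome 1 share of 50% and every knockout library on the other, a pattern met by 14.3% of all tested genes. Fstl3 averaged 42.4% in wild type and 98.8% in knockout. Inhba averaged 55.3% and 44.4%. Tgfb1 averaged 66.9% and 38.3%, close to its neighbours at 65.9% and 37.6%, while its chromosome averaged 57.6% and 31.7%. These differences were in view when the genes were picked, so they were not tested here beyond the genome-wide fit.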

How the results depend on the processing

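Limits are set by 3 libraries a group and by the wider spread among knockout lines. Low counts limit Grem1, Bmp4 and Fst and the genome 2 allele of Fstl3 in knockout. The number of members called between groups was 2; it was 4 with DESeq2 (Inhba, Tgfb2, Grem1 and Eng), 1 without the low-count filter (Eng) and 0 to 4 when single libraries were left out. It was 0 without any wild-type library in edgeR (4 at an unadjusted p under 0.05 each time). Other pathway genes called numbered 11, against 30 with DESeq2, 5 without the filter, 17 with limma-voom and 0 to 29 without single libraries. Over all genes the 1123 calls became 2590 with DESeq2 and 396 without the filter. Leaving out wild-type library 1, 2 or 3 gave 51, 45 and 50, and leaving out line 2, 9 or 22 gave 1662, 1256 and 2482. Members with unequal alleles in knockout numbered 3, against 5 with chromosome medians taken out and 1 to 4 without single libraries. In wild type the count of 9 became 6 with chromosome medians taken out, 8 with a minimum of 50 allele counts and 8 to 9 without single libraries. Members with a different ratio between groups numbered 3, and 2 to 5 without single libraries. Over the 11 alternatives, Fst, Tgfb3, Fstl3 and Fstl1 were never called between groups. Their log2 fold changes ranged from -2.25 to -0.07 for Fst, 0.01 to 0.92 for Tgfb3, -0.71 to -0.28 for Fstl3 and 0.15 to 0.40 for Fstl1. Tgfb1 ranged from -0.55 to -0.25 and was called in 1 of the 11, without line 9 (-0.55, edgeR adjusted p = 0.0229). Some log2 values changed sign. Between groups, Bmp4 was -1.52 with limma-voom and -0.31 (without line 22) to 1.21 (without line 9), Bmpr1a 0.01 with chromosome medians taken out, and Id3 -0.36 (without line 9) to 0.18 (without line 2). For the allelic ratio in wild type, Fstl3 was 0.21 and Fstl1 -0.26 with chromosome medians taken out, and Fstl1 -0.04 (without library 3) to 0.89 (without library 2). In knockout, Tgfb1 was 0.33 with chromosome medians taken out and Tgfb2 -0.29 (without line 22) to 0.19 (without line 2). The difference in ratio of Fst was -0.33 (without line 22) to 1.20 (without line 9). The causes were not tested. No paired analysis was possible because the groups share only 1 replicate number.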
